A study of Sus scrofa with 8 samples.

Results

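The genes described here are 10 genes of striated muscle known to respond to stretch and wall stress, namely *ANKRD1*, *ANKRD2*, *XIRP1*, *XIRP2*, *CSRP3*, *FHL1*, *FHL2*, *LMCD1*, *RCAN1*, and *ACTA1*. They were chosen by gene symbol, with earlier results of these data known. Of the 10 symbols, 9 were found among the 18975 genes of the expression table. *FHL1* was absent under its own symbol. A row named *FHL1C*, whose gene identifier in the RefSeq gene table is that of *FHL1*, was examined beside the others and is not counted among the 9. All 9 genes, and *FHL1C*, passed the filter on low expression.

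RNA-seq was performed on heart tissue of male Tibetan and Yorkshire pigs aged 6 months, raised in the highland at 3000 m (TH and YH, respectively) or in the lowland at 100 m (TL and YL, respectively). No agent was given and no gene was altered in any group. Each group of 8 pigs gave 2 libraries, each made from the pooled RNA of 4 pigs, so that the spread between libraries is a spread between pools. The labels give heart as the tissue without naming a chamber, and they do not pair libraries between groups.

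Heart muscle cells sense load at the Z-disc and at the spring-like region of titin. Several of the proteins described here sit at these places and also move to the nucleus, where they act on transcription, and their genes are among the first to be induced when the heart wall is overloaded. *ACTA1* encodes the actin of skeletal muscle, which these hearts also expressed in every group. It made up 67.4% to 91.7% of the summed FPKM of *ACTA1* and the cardiac actin gene *ACTC1*, the lowland libraries included.

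Reads on genes ranged from 15687000 (TH2) to 26723000 (TH1) per library, and mitochondrial transcripts took between 57.7% (YH2) and 87.6% (TH1) of the summed FPKM (fragments per kilobase of transcript scaled to the mapped fragments of the library). Heart muscle was present in every library, with all 12 cardiomyocyte markers detected and their summed level between 10988 FPKM (YL2) and 31037 FPKM (TH1). The YL2 and TH1 libraries stood apart. In YL2, the 11 kidney markers summed to 8650 FPKM, against 0.319 to 17.1 FPKM in the other 7 libraries, and *UMOD*, which is made by the kidney tubule, was at 947 FPKM. YL2 also held the lowest value of 6 of the 9 genes, although 22.5% of all 11913 genes tested had their lowest value there. TH1 held the lowest value of 26.7% and the highest value of 25% of all genes tested, and the highest value of 3 of the 9 genes, and it differed from TH2 in *COL3A1* (18.2 against 172 FPKM) and *VWF* (1.07 against 22.8 FPKM). Results of the 9 genes and medians of the pathway lists that rest on YL2 are therefore given with and without it. Single genes of the pathway and marker lists are given with all libraries only. Without TH1, the log2 fold changes in TH *vs*. TL were 4.15 for *ANKRD2*, 1.78 for *CSRP3*, 1.11 for *ANKRD1*, 1.05 for *XIRP2*, 0.78 for *ACTA1*, and -1.70 for *FHL2*, and those in TH *vs*. YH were 1.52 for *ANKRD2*, 0.69 for *CSRP3*, 1.16 for *ACTA1*, and -0.51 for *FHL2*. In pooled tissue, fewer cells of a type and less RNA per cell cannot be told apart.

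The summed atrial markers (11 rows found) were 6645 and 5410 FPKM in the TH libraries, 1522 and 2570 FPKM in TL, 644 and 1064 FPKM in YH, and 2643 and 419 FPKM in YL. The sum was thus highest in TH, but it is almost all *MYL7* and *NPPA*, and the list was mixed. Of its 8 tested genes, 3 lay higher in TH than in TL without overlap (*MYL7*, *NPPA*, and *SLN*) and 3 lay lower (*MYL4*, *TBX5*, and *KCNJ3*). *MYL7*, the atrial myosin light chain, was at 4283 and 3207 FPKM in TH, against 337 to 2578 FPKM elsewhere. *NPPA*, the atrial natriuretic peptide gene, was at 2263 and 2146 FPKM in TH, against 23.1 to 108 FPKM elsewhere, and its difference in TH *vs*. YH (log2 fold change 5.53, SE 0.68, limma adjusted p = 0.0448) was not past the threshold of 0.01. The 7 ventricular markers found summed to 7564 and 5456 FPKM in TH and to between 3366 and 9458 FPKM in the other libraries. The 11 skeletal muscle markers found summed to 1651 and 1175 FPKM in TH and to between 1252 and 2889 FPKM elsewhere, most of it *CKM*, which heart muscle also expresses. Of its 5 tested genes, 2 had a log2 fold change over 1 in TH *vs*. TL and 3 one under -1 (*CKM* at -1.30, *TNNI1* at -1.51, and *CASQ1* at -1.05). *TNNT1*, the troponin T of slow skeletal muscle, was at 339 and 249 FPKM in TH against 19.2 to 129 FPKM elsewhere (log2 fold change 3.27 in TH *vs*. TL, SE 0.75, limma adjusted p = 0.221), and *TNNC2*, the troponin C of fast skeletal muscle, was at 3.24 and 3.41 FPKM in TH against at most 0.785 FPKM elsewhere. The 6 smooth muscle markers found summed to 371 and 339 FPKM in TH and to between 109 and 249 FPKM elsewhere, with *TAGLN* (146 and 131 against 40.4 to 98.4 FPKM) and *CNN1* (132 and 89.5 against 10.9 to 61.7 FPKM) highest in TH. This list was mixed too, with 2 of its 6 tested genes higher in TH than in TL without overlap and 3 lower (*MYH11* at -1.20, *ACTG2* at -1.12, and *SMTN* at -0.29 on the log2 scale). The 6 blood markers found summed to 3115 and 1635 FPKM in TH and to between 533 and 1409 FPKM elsewhere. Fibroblast markers summed to 204 and 713 FPKM in TH, 824 and 641 FPKM in TL, 322 and 398 FPKM in YH, and 274 and 239 FPKM in YL. In TL *vs*. YL, 8 of the 9 tested fibroblast genes and 5 of the 6 smooth muscle genes lay higher without overlap (23.8% of all genes). Their median log2 fold changes were 1.39 and 0.97. Endothelial markers summed to between 99.4 and 186 FPKM in all libraries, and adipocyte markers to at most 3.40 FPKM. Results below in which TH stands above the other groups come with atrial, blood, and smooth muscle sums that were also highest in TH. *TNNT1* and *TNNC2* were highest there as well. Outside TH this did not always hold. *ANKRD2* (64.6 FPKM) and *CSRP3* (3689 FPKM) were next highest in YH2, where the atrial sum was 1064 FPKM, against 1522 and 2570 FPKM in TL. In TL *vs*. YL, *FHL2* and *LMCD1* were higher along with the fibroblast and smooth muscle markers. The part of any of these markers in the results was not tested.

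**Figure D1:**
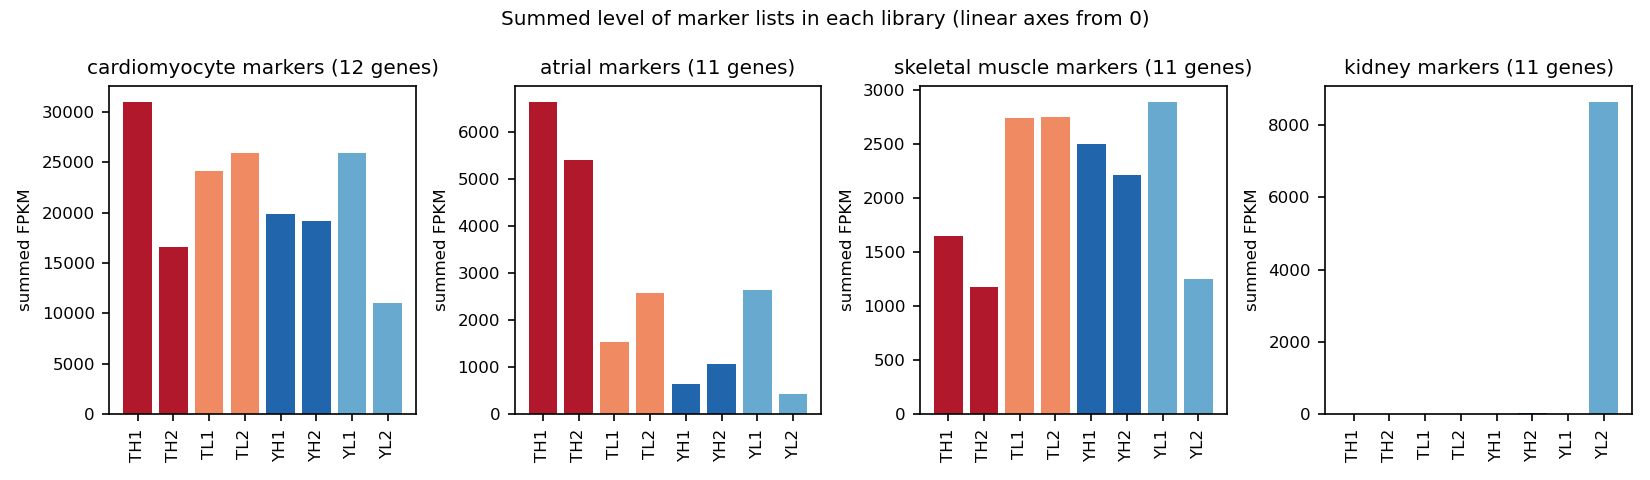
Summed FPKM of the cardiomyocyte, atrial, skeletal muscle, and kidney marker lists in each of the 8 libraries (bars, linear axes from 0, coloured by group). The atrial sum was highest in TH1 (6645) and TH2 (5410), and the kidney sum was 8650 in YL2 and at most 17.1 in the other 7 libraries.

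The 9 genes spanned a wide range of levels. On the FPKM scale, which is per length, *ACTA1* was the most abundant, with a mean of 14402 over the 8 libraries, and it ranked between 19th and 27th among all genes in every library. *CSRP3* (mean 2738) and *ANKRD1* (mean 2292) followed, and their ranges over the libraries overlapped. *XIRP1* (mean 128) stood next. *FHL2* (71.0), *RCAN1* (42.6), *XIRP2* (39.9), *ANKRD2* (29.5), and *LMCD1* (22.5) were lower, and neighbours in this order had overlapping ranges over the 8 libraries. Together the 9 genes made up between 1.54% (YL1) and 4.81% (TH2) of the FPKM outside the mitochondrial genome, with *ACTA1* alone giving 59.3% to 82.3% of their sum.

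**Figure D2:**
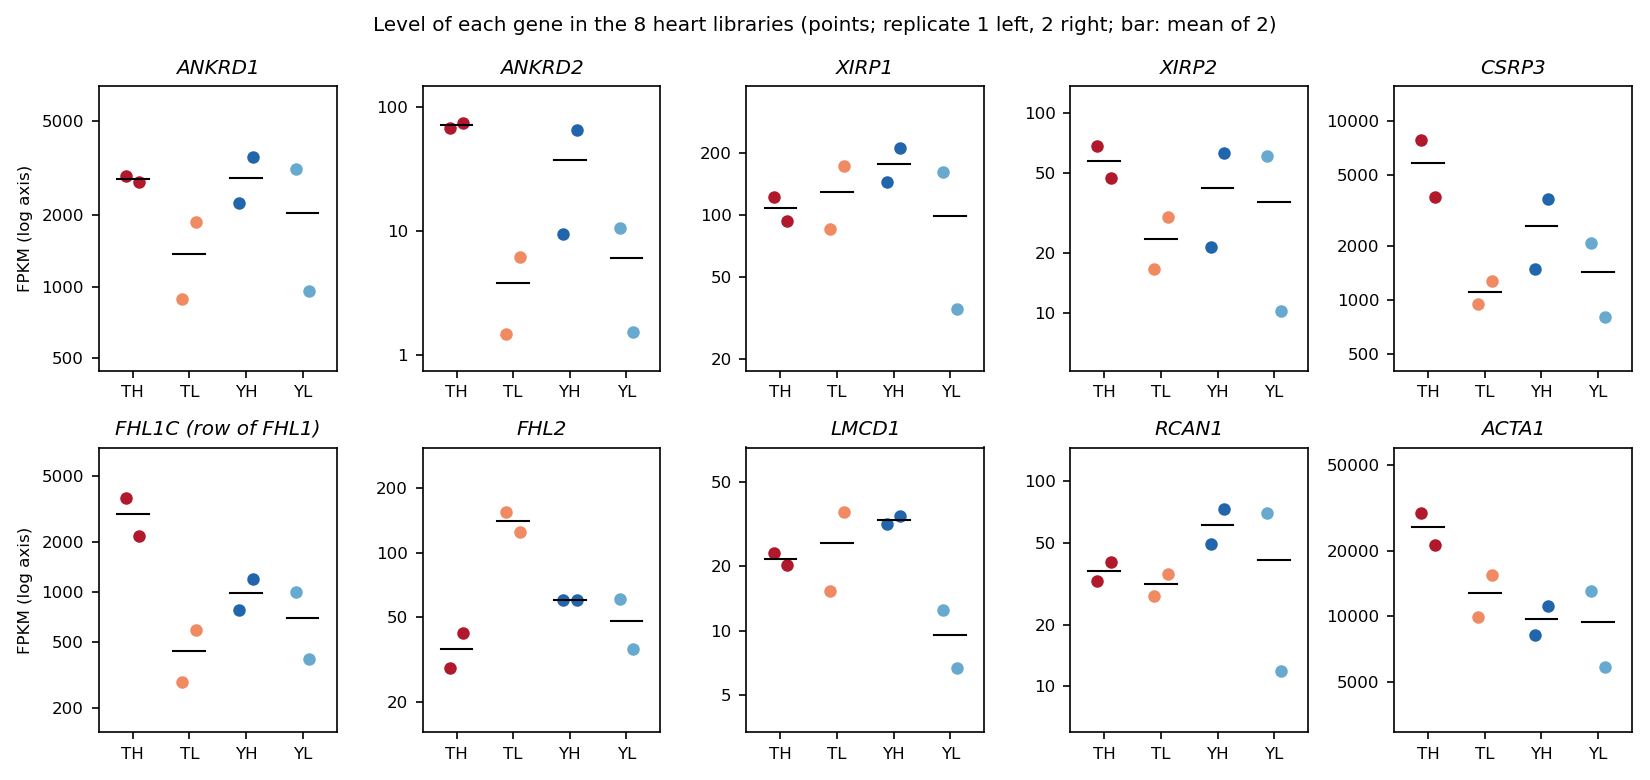
FPKM (log axis) of the 9 genes and of *FHL1C* in each library of TH, TL, YH, and YL (points, replicate 1 left and 2 right; bars, mean of 2). *ANKRD2* is high in TH1, TH2, and YH2 (64.6 to 73.7 FPKM), *FHL2* is highest in TL (155 and 125), and the 2 YL libraries lie far apart for *RCAN1* (70.3 and 11.9).

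No gene of the 9 was called in any comparison at a limma adjusted p under 0.01 with a log2 fold change over 1 in size, where 0.0336% of all genes were called in TH *vs*. YH, 0.00839% in TL *vs*. YL, 0.0504% in TH *vs*. TL, and 0.00% in YH *vs*. YL. At an unadjusted limma p under 0.05, 1 of the 9 passed in TH *vs*. YH (16.2% of all genes), 2 in TL *vs*. YL (8.94%), 3 in TH *vs*. TL (11.3%), and 1 in YH *vs*. YL (5.97%). With an unadjusted limma p under 0.01 and the same bound on the fold change, the counts were 0 (4.06%), 1 (*FHL2*; 2.03%), 2 (*FHL2* and *ANKRD2*; 2.57%), and 1 (*LMCD1*; 0.839%), respectively, and 1 (*FHL2*; 2.85%) in the interaction of breed and altitude. At an adjusted p under 0.05 with the same bound on the fold change, the count was 0 throughout, against 0.260%, 0.00839%, 0.101%, and 0.00% of all genes, and 0.0420% in the interaction. With 2 libraries against 2, an exact two-sided permutation test of a single gene cannot go below p = 0.333. The differences below are therefore given as sizes with their intervals, and none of them is a change that passed the test.

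In TH *vs*. TL, the comparison of highland with lowland Tibetan pigs, both TH libraries lay above both TL libraries for 5 genes (*ANKRD1*, *ANKRD2*, *CSRP3*, *XIRP2*, and *ACTA1*) of the 9, against 24.0% of all genes, and *FHL2* lay below, against 24.5%. All 6 had a log2 fold change over 1 in size and groups that did not overlap, which 5.77% of all genes had. By the same measure, the count was 3 in TH *vs*. YH (8.70%), 2 in TL *vs*. YL (5.27%), and 1 in YH *vs*. YL (3.62%). The median log2 fold change of the 9 genes was 1.03, and that of all genes was -0.02. The genes were chosen with earlier results of these data known, so these counts and medians describe the 9 genes and test nothing. *LMCD1*, *RCAN1*, and *XIRP1* overlapped between TH and TL, with log2 fold changes of -0.12, 0.21, and -0.19.

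*ANKRD1* (ENSSSCG00000010461, chr14:111715048-111724029, Sscrofa10.2) encodes CARP, a titin-bound repressor of transcription and a classical marker of cardiac wall stress. It was at 2935 and 2776 FPKM in TH, 885 and 1873 FPKM in TL, 2256 and 3512 FPKM in YH, and 3143 and 961 FPKM in YL. TL1 and YL2 were low, and the other 6 libraries lay within a narrower range. The log2 fold change in TH *vs*. TL was 1.15 (SE 0.64, 95% interval -0.38 to 2.68, limma adjusted p = 0.549), and it was 0.61 without TL1 and 1.69 without TL2. TH *vs*. YH gave 0.02 (SE 0.64, interval -1.51 to 1.55), an interval that still allows a difference of more than 2-fold in either direction.

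*ANKRD2* (ENSSSCG00000010522, chr14:118448760-118462197) encodes the second member of this family, which is best known from slow skeletal muscle and is induced there by passive stretch. It varied the most of the 9 genes, with a 49.3-fold range from lowest to highest library. Its level was 68.2 and 73.7 FPKM in TH, 1.49 and 6.12 FPKM in TL, 9.39 and 64.6 FPKM in YH, and 10.5 and 1.54 FPKM in YL. Both TH libraries and YH2 were high, and the other 5 libraries were at or below 10.5 FPKM. The reads behind these levels were 1585 and 1793 (TH), 43 and 207 (TL), 279 and 2472 (YH), and 236 and 60 (YL). Counting error is thus small beside the distance between the libraries within TL, YH, and YL, while the TH libraries were only 1.08-fold apart. In TH *vs*. TL, the mean FPKM was 18.6 times higher and the log2 fold change was 4.09 (SE 1.03, 95% interval 1.64 to 6.55, limma adjusted p = 0.255), larger in size than that of 99.8% of all genes tested. Without TL1 the ratio of mean FPKM was 11.6 and the log2 fold change 3.34, and without TL2 they were 47.5 and 4.85. The adjusted p ranged from 0.0175 to 1 over the alternatives. In YH *vs*. YL the log2 fold change was 2.27 (SE 1.03, interval -0.18 to 4.73) with overlapping groups. It was 0.94 without YH2, 3.60 without YH1, 1.18 without YL2, and 3.36 without YL1. The difference between these altitude effects was 1.82 (SE 1.46, limma adjusted p = 0.646), and between 0.49 (without YH1) and 3.15 (without YH2) when single libraries were left out. In TH *vs*. YH the log2 fold change of 1.46 (SE 1.03, interval -0.99 to 3.92, limma adjusted p = 0.510) was 0.13 without YH1 and 2.79 without YH2.

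Within a library, *ANKRD2* stood at 2.32 (TH1) and 2.65 (TH2) FPKM per 100 FPKM of *ANKRD1* in TH. The same ratio was 0.169 and 0.327 for the TL libraries, 0.416 and 1.84 for YH, and 0.335 and 0.160 for YL. The ratio thus spanned 16.6-fold. TH lay above all other libraries, with YH2 next.

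*CSRP3* (ENSSSCG00000013354, chr2:43258338-43279704) encodes the muscle LIM protein MLP, a Z-disc protein needed for the normal architecture of heart muscle cells. It was at 7832 and 3786 FPKM in TH, 954 and 1274 FPKM in TL, 1493 and 3689 FPKM in YH, and 2074 and 806 FPKM in YL. TH lay above every other library, but TH2 exceeded YH2 only narrowly. The log2 fold change was 2.30 in TH *vs*. TL (SE 0.66, 95% interval 0.73 to 3.88, limma adjusted p = 0.295, range over the alternatives 0.0433 to 1) and 1.21 in TH *vs*. YH (SE 0.66, interval -0.36 to 2.79, limma adjusted p = 0.409). The latter was 0.56 without YH1, 1.87 without YH2, and 0.69 without TH1. Relative to *TNNT2*, the cardiac troponin T gene, *CSRP3* was at 110 and 98.8 per 100 in TH and at 18.8 and 23.3 per 100 in TL, with YH2 (78.2) near TH and the remaining 3 libraries between 27.2 and 28.8.

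The Xin repeat proteins bind and stabilise actin at the intercalated disc. *XIRP1* (ENSSSCG00000011265, chr13:26127753-26137301) was at 122 and 93.3 FPKM in TH, 85.8 and 173 FPKM in TL, 144 and 211 FPKM in YH, and 162 and 35.0 FPKM in YL. TH lay below YH, with a log2 fold change of -0.71 (SE 0.70, interval -2.38 to 0.96, limma adjusted p = 0.639), and the other pairs overlapped. *XIRP2* (ENSSSCG00000015917, chr15:82491703-82597617) was at 68.2 and 47.6 FPKM in TH, 16.6 and 30.2 FPKM in TL, 21.3 and 63.4 FPKM in YH, and 61.2 and 10.3 FPKM in YL. TH lay above TL, with a log2 fold change of 1.31 (SE 0.85, interval -0.70 to 3.32, limma adjusted p = 0.609), or 0.89 without TL1 and 1.72 without TL2. *XIRP2* per 100 of *XIRP1* was 56.1 and 51.0 in TH and 14.8 to 37.7 in the other 6 libraries, so that these related genes did not keep one proportion.

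*FHL2* (ENSSSCG00000008147, chr3:51610399-51640594) encodes DRAL, a protein abundant in heart that binds titin, restrains calcineurin, and serves as a cofactor of transcription. It was at 29.0 and 42.1 FPKM in TH, 155 and 125 FPKM in TL, 60.4 and 59.9 FPKM in YH, and 60.8 and 35.4 FPKM in YL. Both TL libraries were at least 2-fold above every other library, and TH1 was the lowest of all 8. In TH *vs*. TL the mean FPKM ratio was 0.254 and the log2 fold change was -1.96 (SE 0.32, 95% interval -2.73 to -1.20, limma adjusted p = 0.145, range over the alternatives 0.0451 to 0.883), larger in size than that of 98.9% of all genes. The log2 fold change in TL *vs*. YL was 1.56 (SE 0.32, interval 0.80 to 2.33, limma adjusted p = 0.253), and it was 1.18 (SE 0.30, limma adjusted p = 0.288) without YL2. In TH *vs*. YH it was -0.77 (SE 0.32, interval -1.53 to 0.00, limma adjusted p = 0.308). YH *vs*. YL gave 0.37 (SE 0.32, interval -0.40 to 1.13) with overlapping groups, and -0.02 without YL2.

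The breed difference of *FHL2* thus pointed down at high and up at low altitude, with no overlap of the groups in either. The difference between both, tested as the interaction of breed and altitude, was -2.33 (SE 0.46, 95% interval -3.42 to -1.25, limma adjusted p = 0.256), and it was -1.95 (limma adjusted p = 0.206) without YL2. It was one of 2 genes of the 9 with an unadjusted p under 0.05 in this test, against 10.9% of all genes, and none was called at an adjusted p under 0.01 (0.0336% of all genes).

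*FHL1C* (ENSSSCG00000012699, chrX:127232156-127289862), the row with the identifier of *FHL1*, belongs to a LIM-only protein that is part of a stretch-sensing complex at titin. It was at 3695 and 2185 FPKM in TH, 287 and 593 FPKM in TL, 782 and 1202 FPKM in YH, and 995 and 396 FPKM in YL. TH lay above every other library and TL1 was the lowest. The log2 fold change was 2.78 in TH *vs*. TL (SE 0.59, interval 1.39 to 4.17, limma adjusted p = 0.203, range over the alternatives 0.0118 to 0.99) and 1.55 in TH *vs*. YH (SE 0.59, interval 0.16 to 2.95, limma adjusted p = 0.274). *FHL2* per 100 of *FHL1C* was 0.785 and 1.93 for TH, 53.9 and 21.2 for TL, and 4.98 to 8.94 in the Yorkshire libraries, a 68.6-fold span in which TH and TL lay at opposite ends.

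**Figure D3:**
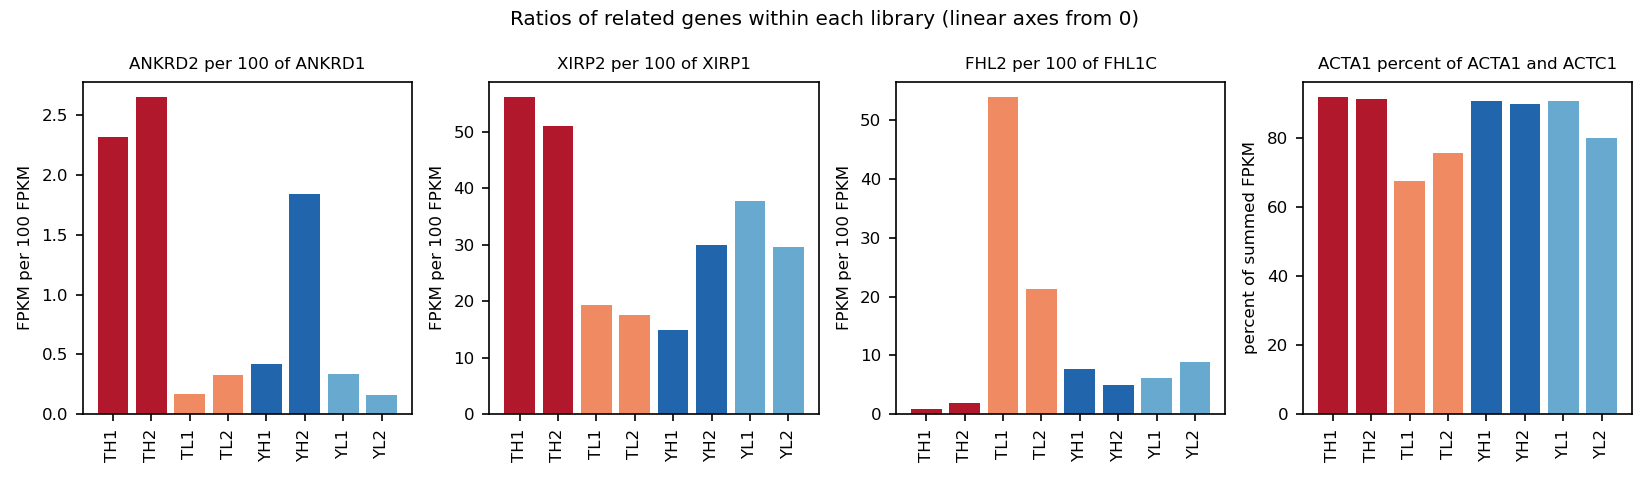
Ratios of FPKM within each library (bars, linear axes from 0, coloured by group) for *ANKRD2* per 100 of *ANKRD1*, *XIRP2* per 100 of *XIRP1*, *FHL2* per 100 of *FHL1C*, and *ACTA1* as a percent of *ACTA1* and *ACTC1*. TH had the highest *ANKRD2* to *ANKRD1* ratios (2.32 and 2.65) and the lowest *FHL2* to *FHL1C* ratios (0.785 and 1.93).

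*LMCD1* (ENSSSCG00000011538, chr13:72215847-72275505) and *RCAN1* both belong to calcineurin signaling, a route from calcium to growth of heart muscle cells. *LMCD1* encodes dyxin, a LIM protein that promotes calcineurin activity. It was at 23.1 and 20.4 FPKM in TH, 15.4 and 36.1 FPKM in TL, 31.5 and 34.4 FPKM in YH, and 12.5 and 6.67 FPKM in YL. Both YL libraries were below the other 6. The log2 fold change in YH *vs*. YL was 1.74 (SE 0.43, 95% interval 0.71 to 2.76, limma adjusted p = 0.647), larger in size than that of 98.6% of all genes, and it was 1.33 (SE 0.46, limma adjusted p = 0.802) without YL2. In TL *vs*. YL it was 1.28 (SE 0.43, interval 0.25 to 2.30, limma adjusted p = 0.441), and 0.87 (SE 0.46, limma adjusted p = 0.647) without YL2, 0.69 without TL2, and 1.87 without TL1. TH lay below YH, at -0.58 (SE 0.43, interval -1.60 to 0.45, limma adjusted p = 0.531), and the interaction was -1.85 (SE 0.61, interval -3.30 to -0.40, limma adjusted p = 0.371), or -1.44 (limma adjusted p = 0.390) without YL2.

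*RCAN1* (ENSSSCG00000012050, chr13:207934801-207945091), an inhibitor of calcineurin that calcineurin itself induces, was at 32.6 and 40.3 FPKM in TH, 27.6 and 35.3 FPKM in TL, 49.5 and 73.1 FPKM in YH, and 70.3 and 11.9 FPKM in YL. The YL libraries were 5.93-fold apart and held both the lowest value and the second highest. TH lay below YH, with a log2 fold change of -0.72 (SE 0.72, interval -2.43 to 1.0, limma adjusted p = 0.645). In TL *vs*. YL the log2 fold change was 0.09 while the ratio of mean FPKM was 0.766, so that both measures differ in sign, and without YL2 the log2 fold change was -1.15.

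*ACTA1* (ENSSSCG00000010190, chr14:65236450-65239189) was at 30005 and 21387 FPKM in TH, 9944 and 15576 FPKM in TL, 8212 and 11213 FPKM in YH, and 13045 and 5833 FPKM in YL. TH lay above all other libraries, which overlapped one another. The log2 fold change was 1.40 in TH *vs*. YH (SE 0.58, 95% interval 0.02 to 2.78, limma adjusted p = 0.303) and 1.03 in TH *vs*. TL (SE 0.58, interval -0.35 to 2.40, limma adjusted p = 0.552). The latter was 0.70 without TL1 and 1.35 without TL2. *ACTC1*, the cardiac actin gene, encodes a nearly identical protein. Whether reads of one gene were counted for the other was not tested, and the split between them is uncertain to that extent. *ACTA1* was 91.7% and 91.3% of the summed FPKM of both genes for TH, 67.4% and 75.6% for TL, 90.7% and 89.8% for YH, and 90.5% and 80.0% for YL. The sum itself was 32722 and 23426 FPKM in TH and 7290 to 20594 FPKM elsewhere, with TH again the highest.

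In TH *vs*. YH, the comparison of both breeds in the highland, TH lay above YH without overlap for *ACTA1*, *ANKRD2*, and *CSRP3* (3 of 9, against 25.2% of all genes) and below for *FHL2*, *XIRP1*, *LMCD1*, and *RCAN1* (4 of 9, against 27.3%), with a median log2 fold change of 0.02, against -0.03 over all genes. In TL *vs*. YL, TL lay above YL for *FHL2* and *LMCD1* (2 of 9, against 23.8%) and below for 0 (17.8%), with a median of 0.09, against 0.02 over all genes (-0.91 against 0.05 without YL2). In YH *vs*. YL all 9 genes had a log2 fold change above 0 (54.0% of all genes) with a median of 0.86, against 0.03 over all genes (without YL2, 4 of 9 genes and a median of -0.02, against 6775 of 11913 genes and 0.06), but *LMCD1* alone had groups that did not overlap (1 of 9, against 21.9%). Without YL2, the log2 fold changes of *ACTA1*, *ANKRD1*, *FHL2*, *RCAN1*, and *XIRP2* in this comparison were -0.44, -0.16, -0.02, -0.22, and -0.71, respectively. TH *vs*. YH and TH *vs*. TL share the TH libraries, so that a gene high in TH is high in both.

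**Figure D4:**
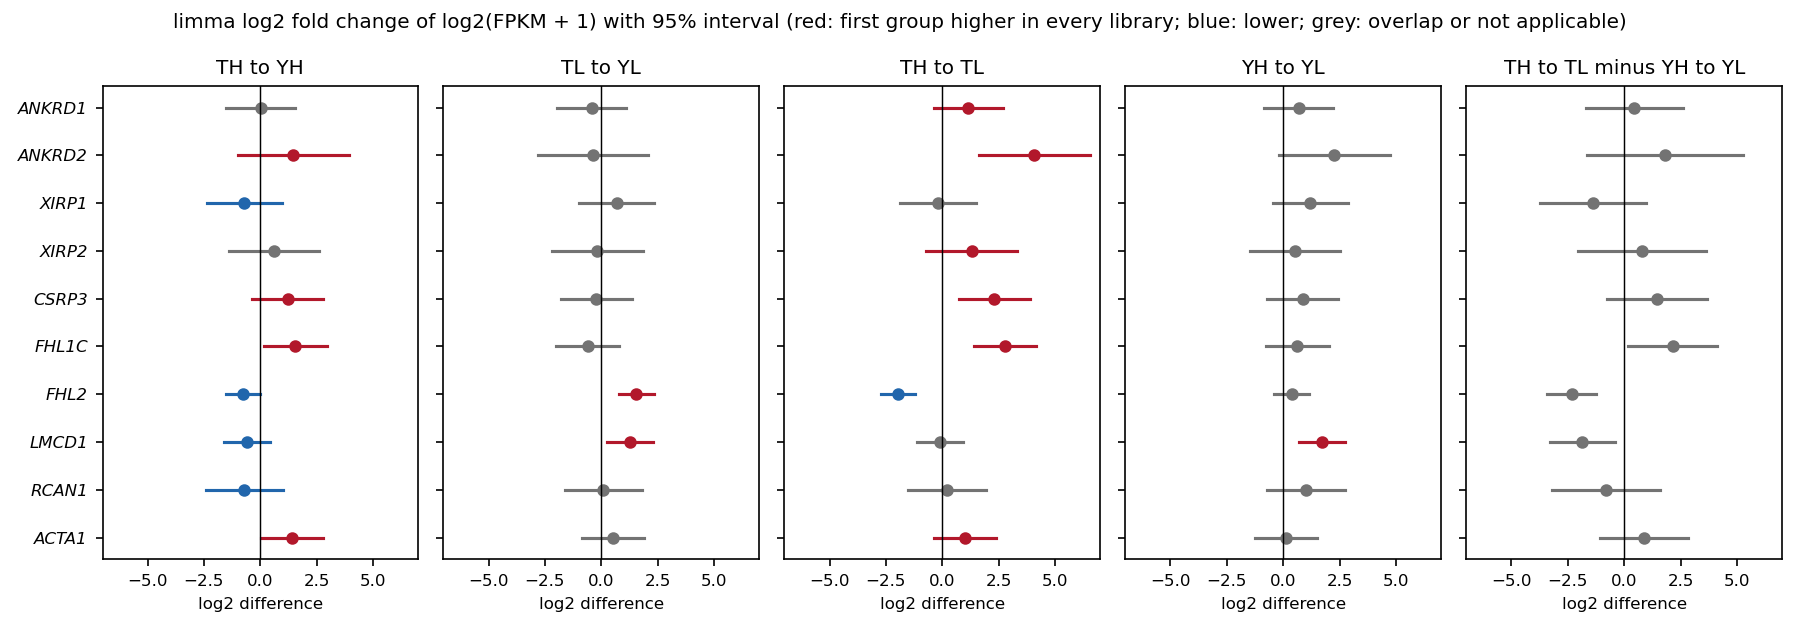
Log2 fold change (points) with 95% interval (lines) from limma on log2(FPKM + 1) for the 4 comparisons and for the interaction of breed and altitude. Red and blue mark genes for which the first group is above or below the second in every library, and grey marks overlap; *ANKRD2* in TH *vs*. TL (4.09) is the largest value and *FHL2* (-1.96) lies on the other side of 0.

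The 9 genes also differed in how they followed one another over the 8 libraries. Pearson correlations of log2(FPKM + 1), given as a description over libraries that share groups and depth, were 0.95 for *ANKRD2* and *CSRP3*, 0.91 for *ANKRD1* and *XIRP2*, and 0.91 for *XIRP1* and *RCAN1*. *FHL2* had negative values with *CSRP3* (-0.56), *ANKRD2* (-0.52), and *ANKRD1* (-0.38), and positive values with *XIRP1* (0.30), *LMCD1* (0.27), and *RCAN1* (0.15). Every negative value among the 9 genes was one with *FHL2*.

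**Figure D5:**
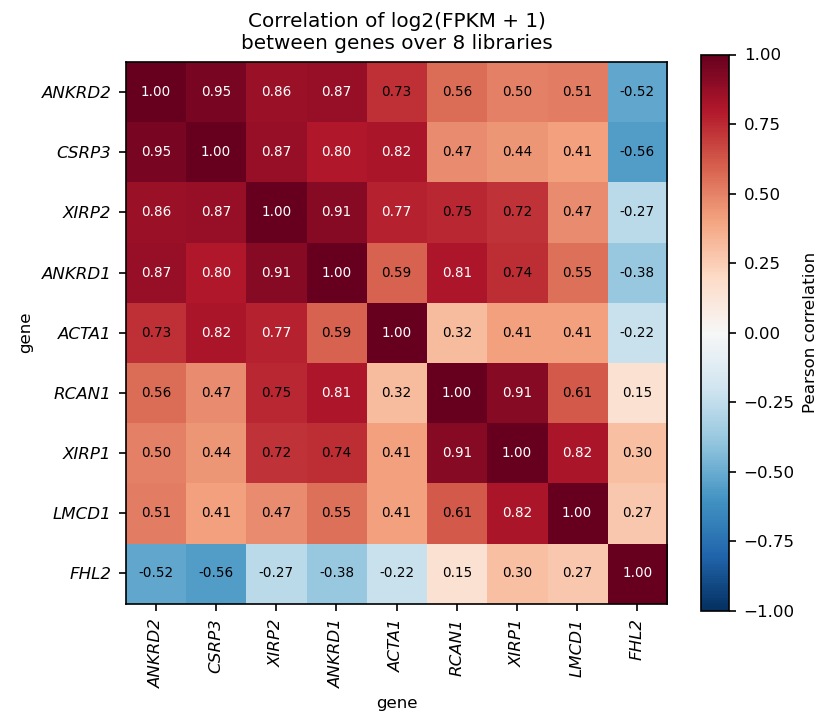
Pearson correlation of log2(FPKM + 1) over the 8 libraries between the 9 genes (colour and number in each cell). *ANKRD2* and *CSRP3* reach 0.95, and the row of *FHL2* falls to -0.56 with *CSRP3*.

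Of 4261 genes with a mean of at least 10 FPKM, those whose pattern over the 8 libraries was most like a gene of the 9 were as follows. For *ANKRD1* they were *TNIP1* (Pearson r 0.959), *TNFRSF12A* (0.958), and ENSSSCG00000022111 (0.951). *TNFRSF12A*, which encodes the receptor of the cytokine TWEAK, was at 320 and 222 FPKM in TH, 21.2 and 121 FPKM in TL, 246 and 258 FPKM in YH, and 214 and 40.0 FPKM in YL, with TL1 and YL2 low as for *ANKRD1*. For *ANKRD2* they included *HSPA4* (0.977) and *TMEM110* (0.964). *TMEM110* was at 114 and 96.8 FPKM in TH, 12.7 and 16.6 FPKM in TL, 18.2 and 62.1 FPKM in YH, and 18.3 and 7.32 FPKM in YL, with TH1, TH2, and YH2 the highest as for *ANKRD2*. For *CSRP3* they were *FBXO7* (0.987), *POLR3D* (0.987), and *CCT8* (0.982), and for *FHL2* they were *CCNG1* (0.960), *ADSSL1* (0.957), and *AKR1B1* (0.954). These values are over 8 libraries and were searched over all 4261 genes, so that high values arise readily in such a search.

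Genes of the surrounding pathways were examined from 5 lists, in which 0 genes were called in any of the 4 comparisons or in the interaction at a limma adjusted p under 0.01. Of 25 tested titin and Z-disc partners, 5 had an unadjusted limma p under 0.05 in TH *vs*. YH, 3 in TL *vs*. YL, 3 in TH *vs*. TL, and 9 in YH *vs*. YL, against 16.2%, 8.94%, 11.3%, and 5.97% of all genes, and the median log2 fold change was -0.24, 0.50, -0.01, and 0.73, respectively. Without YL2, the median was -0.19 in TL *vs*. YL and 0.09 in YH *vs*. YL, where 4 genes then had an unadjusted limma p under 0.05 (5.45% of all genes), while 3 had one in TL *vs*. YL (9.72%). *DES*, the gene of the intermediate filament desmin, was at 9125 and 5761 FPKM in TH, 1295 and 1728 FPKM in TL, 1697 and 2624 FPKM in YH, and 3510 and 920 FPKM in YL. Its TH libraries were above all others, as for *CSRP3*, with a log2 fold change of 2.28 in TH *vs*. TL (SE 0.66, limma adjusted p = 0.301). *TCAP*, which caps titin at the Z-disc, and *MYOZ2*, a calcineurin-binding Z-disc protein, had log2 fold changes of 0.21 (SE 0.59) and 0.84 (SE 0.60) in TH *vs*. TL.

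Of 18 tested genes of the SRF, MRTF, YAP, and TEAD routes, through which tension acts on transcription, the median log2 fold change was 0.25 in TH *vs*. YH, 0.15 in TL *vs*. YL, 0.19 in TH *vs*. TL, and 0.28 in YH *vs*. YL, and 3, 3, 4, and 0 genes had an unadjusted limma p under 0.05, against the same shares of all genes. Without YL2, the median was 0.18 in TL *vs*. YL (6 genes, 9.72% of all genes) and 0.16 in YH *vs*. YL (1 gene, 5.45%). *CTGF*, a YAP target, was at 192 and 176 FPKM in TH, 81.2 and 151 FPKM in TL, 29.7 and 34.7 FPKM in YH, and 28.1 and 42.2 FPKM in YL. Both Tibetan groups were above both Yorkshire groups, with log2 fold changes of 2.48 in TH *vs*. YH (SE 0.35, limma adjusted p = 0.0592) and 1.66 in TL *vs*. YL (SE 0.35, limma adjusted p = 0.253). *ABRA*, which activates SRF through MRTF, and *RHOA*, the small GTPase upstream of it, had log2 fold changes of 0.39 (SE 0.63) and 0.50 (SE 0.22) in TH *vs*. YH.

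Of 14 tested genes of calcineurin and NFAT signaling, the median log2 fold change was -0.13, 0.31, -0.21, and 0.26 in the same order of comparisons, and 1, 2, 0, and 2 genes had an unadjusted limma p under 0.05, against 16.2%, 8.94%, 11.3%, and 5.97% of all genes. The median without YL2 was 0.23 in TL *vs*. YL (2 genes, 9.72% of all genes) and 0.30 in YH *vs*. YL (0 genes, 5.45%). *RCAN2*, a relative of *RCAN1*, was between 69.6 and 99.5 FPKM in 7 libraries and at 26.6 FPKM in YL2. *MEF2D*, a muscle transcription factor, was between 26.8 and 40.0 FPKM in 7 libraries and at 12.6 FPKM in YL2. *CIB1*, which anchors calcineurin at the membrane, was between 14.7 and 23.5 FPKM in 7 libraries and at 87.6 FPKM in YL2, the opposite direction. The spread of *RCAN2*, *MEF2D*, and *CIB1* was thus mostly that between YL2 and the rest. This did not hold for the whole list, as *NFATC3* was lowest in TH1 (0.274 FPKM, against 1.73 to 3.73 FPKM elsewhere).

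Of 9 tested LIM-domain and actin relatives, the median log2 fold change was 0.41, 0.38, -0.06, and 0.15, and 3, 3, 2, and 1 genes had an unadjusted limma p under 0.05, against the shares of all genes just given. Leaving out YL2 gave a median of 0.45 in TL *vs*. YL (4 genes, 9.72% of all genes) and 0.12 in YH *vs*. YL (1 gene, 5.45%). *ACTC1* was at 2717 and 2039 FPKM in TH, 4818 and 5018 FPKM in TL, 838 and 1276 FPKM in YH, and 1367 and 1457 FPKM in YL. It was highest in TL, where *FHL2* was also highest, with a log2 fold change of -1.06 in TH *vs*. TL (SE 0.35, limma adjusted p = 0.333). *LIMS2*, a LIM protein of focal adhesions, and *ACTA2*, the smooth muscle actin gene, had log2 fold changes of 0.37 (SE 0.24) and 0.04 (SE 0.34) in the same comparison.

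The 14 tested genes of cardiac load and hypertrophy had a median log2 fold change of 1.14 in TH *vs*. YH, 0.60 in TL *vs*. YL, 0.59 in TH *vs*. TL, and 0.40 in YH *vs*. YL, and 7, 2, 6, and 1 genes had an unadjusted limma p under 0.05, against 16.2%, 8.94%, 11.3%, and 5.97% of all genes. With YL2 left out, the median was 0.16 in TL *vs*. YL (3 genes, 9.72% of all genes) and 0.09 in YH *vs*. YL (0 genes, 5.45%). *NPPA* is in this list and in the atrial list. *CRYAB*, a small heat shock protein that protects desmin and titin, was at 6494 and 4239 FPKM in TH, 1041 and 1250 FPKM in TL, 1692 and 3200 FPKM in YH, and 2636 and 717 FPKM in YL. TH was above all other libraries, as for *CSRP3* and *DES*, with a log2 fold change of 2.20 in TH *vs*. TL (SE 0.66, limma adjusted p = 0.309). *HSPB7*, a small heat shock protein of heart, and *PLN*, the inhibitor of the calcium pump, had log2 fold changes of 1.02 (SE 0.54) and -0.95 (SE 0.45) in this comparison. *NPPB*, the brain natriuretic peptide gene and a marker of wall stress, was chosen after its values were seen, with 4963 and 3264 FPKM in TH against 7.75 to 278 FPKM in the other 6 libraries, and its log2 fold change in TH *vs*. TL was 7.55 (SE 1.31, limma adjusted p = 0.173). *MYH6* of the same list went the other way, at -2.44 (SE 1.32, limma adjusted p = 0.536). It was at 20.6 and 18.4 FPKM in TH, 75.1 and 161 FPKM in TL, 246 and 135 FPKM in YH, and 88.4 and 2.6 FPKM in YL. Of the 14 genes, 8 lay higher in TH than in TL without overlap (24.0% of all genes) and 3 lay lower (24.5%).

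Scaling each library to the same level of cardiomyocyte markers, an alternative added after the data were seen, kept the direction of TH *vs*. TL for the 6 genes that stood apart. In TH *vs*. TL the log2 fold change was then 4.24 for *ANKRD2*, 2.52 for *CSRP3* (limma adjusted p = 0.0781), 1.37 for *ANKRD1*, 1.51 for *XIRP2*, 1.24 for *ACTA1*, and -1.74 for *FHL2*. This scaling applies 1 factor per library and moved the median of all genes to 0.15, so that it shifts all of these genes alike.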

How the data were processed

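RNA-seq was performed by the authors on 8 libraries of pig heart (2 per group, each a pool of 4 pigs). According to the submitters' processing notes and the methods, reads were aligned to Sscrofa10.2 (Bowtie 0.12.5, TopHat2 2.0.9), and DESeq 1.10.1 was used. The deposited table gives FPKM and a second signal, a count scaled by the authors with 1 factor per library. Dividing that signal by its smallest step gave whole reads (within 0.05) for 99.7% to 99.8% of low values, and these reads were used for depth and single genes only. The authors' 8 columns of means and ratios, and the 4 tables of single groups, were not used. The descriptions of the YL libraries name another group's table, and these libraries were assigned by title, breed, and column label.

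Genes reaching 1 FPKM in 2 or more libraries (11913 of 18975) were tested on log2(FPKM + 1) using limma 3.58.1 with a trend (R 4.3.3), with all 8 libraries in one fit and Benjamini-Hochberg adjustment over all genes tested. The added 1 shrinks the fold changes of genes with low FPKM. The script was tested on simulated data. Symbols missing from the table were taken from the RefSeq gene table by gene identifier (1025 genes). Tables and plots were made with Python 3.11.15, pandas 2.3.3, and matplotlib 3.10.9. The p-values measure the spread between pools. The 10 genes, the pathway lists, and the marker lists were chosen with earlier results of these data known. All 10 genes were named, with the 3 most abundant tested genes of each pathway list and the 3 genes most correlated with *ANKRD1*, *ANKRD2*, *CSRP3*, and *FHL2*, of which 1 is not reported here. Alternatives were the pseudocount, the filter, scaling, the trend, a replicate block, the samples in the fit, the threshold, and leaving out each library. No gene or protein sequence was used here.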

Additional observations from a re-analysis of the deposited data

Results flagged for a closer look

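The breed difference of *FHL2* had opposite directions at high and at low altitude. TH was below YH (log2 fold change -0.77) and TL was above YL (1.56), in each case with no overlap of the libraries. The difference between both was -2.33 and did not pass after adjustment over all genes (limma adjusted p = 0.256). In TL *vs*. YL the fibroblast, smooth muscle, and cardiomyocyte markers were also higher (median log2 fold changes 1.39, 0.97, and 0.55), and their part was not tested. Scaled to cardiomyocyte markers, which moved the median of all genes to -0.50, *FHL2* in TL *vs*. YL was at 0.96.

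*LMCD1* showed the same arrangement, with TH below YH (-0.58) and TL above YL (1.28). The difference between both was -1.85 (limma adjusted p = 0.371), and it also did not pass. Scaled to cardiomyocyte markers, *LMCD1* in TL *vs*. YL was at 0.71.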

How the results depend on the processing

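With 2 pools per group, prior df of 2.83 and 4 residual df, power was low, and a call that failed does not show equal levels. The alternatives with edgeR and DESeq2 were not run, because not every scaled count came back as a whole read (99.7% to 99.8% of low values did). No gene of the 9 was called in any comparison at an adjusted p under 0.01 under any alternative, leaving out each library included (0 to 0), nor with the replicate block (0). At an adjusted p under 0.05 the count was 0 with all libraries and FPKM as deposited. With equal FPKM sums outside the mitochondrial genome, *ANKRD2* (0.0175) and *CSRP3* (0.0433) passed it in TH *vs*. TL (2 of 9, against 0.269% of all genes). *FHL2* passed it there without YL1 (0.0451, 0.353% of all genes) or YL2 (0.0458, 0.361%), and without YL1 it was also passed by 1 gene in TL *vs*. YL (9.09%), 3 in YH *vs*. YL (8.30%), and 2 in the interaction (6.76%). The lowest adjusted p of the 9 was 0.0127 (*RCAN1*, YH *vs*. YL, without YL1, which leaves YL2 as the lone YL library). Libraries of the same number did not deviate together (correlations between -0.08 and 0.12). Another rule asked for an unadjusted limma p under 0.01 and a log2 fold change above 1 or below -1. By it, the counts were 2 (TH *vs*. TL, 2.57% of all genes), 0 (TH *vs*. YH, 4.06%), and 1 (TL *vs*. YL, 2.03%). YH *vs*. YL gave 1 (0.839%) and the interaction 1 (2.85%). With the same bound, no overlap, and no p, they were 6 (TH *vs*. TL, 5.77% of all genes) and 3 (TH *vs*. YH, 8.70%). TL *vs*. YL then gave 2 (5.27%) and YH *vs*. YL 1 (3.62%). Of the log2 fold changes of the 9 genes and *FHL1C* under alternatives, 425 equalled the value given at 2 decimals, mostly by construction (the alternative cannot move it), 378 moved in the same direction, and 37 changed direction. Under cardiomyocyte marker scaling, chosen after seeing the data, which moved the median of all genes to -0.50 (TL *vs*. YL) and -0.24 (YH *vs*. YL), *ACTA1* was at -0.10 and -0.18, *RCAN1* at -0.48 (TL *vs*. YL), and *LMCD1* and *XIRP1* at 0.09 and 0.02 (TH *vs*. TL). *ANKRD1* in TH *vs*. YH was at -0.11 (median-ratio), -0.12 (equal FPKM sums), and -0.06 (cardiomyocyte markers). The cause was not tested.

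Leaving out single libraries changed direction for *ACTA1* in TL *vs*. YL (-0.07 to 1.09) and YH *vs*. YL (-0.44 to 0.72), *ANKRD1* in TH *vs*. YH (-0.30 to 0.34), TL *vs*. YL (-1.29 to 0.42), YH *vs*. YL (-0.16 to 1.55), and the interaction (-0.40 to 1.31), *ANKRD2* (-1.45 to 0.73), *CSRP3* (-0.91 to 0.45), and *FHL1C* (-1.27 to 0.06) in TL *vs*. YL, *FHL1C* (-0.04 to 1.29) and *FHL2* (-0.02 to 0.75) in YH *vs*. YL, and *LMCD1* (-0.71 to 0.47) and *XIRP1* (-0.69 to 0.31) in TH *vs*. TL. It also did so for *RCAN1* in TL *vs*. YL (-1.15 to 1.33), YH *vs*. YL (-0.22 to 2.25), and the interaction (-2.04 to 0.43), *XIRP1* in TL *vs*. YL (-0.41 to 1.77), and *XIRP2* in TH *vs*. YH (-0.15 to 1.38), TL *vs*. YL (-1.41 to 1.05), YH *vs*. YL (-0.71 to 1.74), and the interaction (-0.44 to 2.02).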
